A study of Mus musculus with 6 samples.

Results

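Endothelial lipase (Lipg) and 8 genes related to it by family or role were examined in mouse ventricles 4 days after myocardial infarction (MI). They are the surface lipases Lpl and Lipc, their helpers Gpihbp1 and Lmf1, the inhibitor Angptl4, the intracellular lipases Pnpla2 and Lipe, and the lysosomal lipase Lipa. Lipg was selected on its own difference between the groups of these hearts, so its values are given as a description with no test. The others were chosen by their relation to Lipg, though with earlier results of these data known. All 9 of the 26012 genes in the table averaged at least 1 normalized count, the minimum for inclusion. Lipc, with a mean of 10.1, was the closest to that minimum.

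Ventricles were taken from 6 C57BL/6 males whose left anterior descending artery had been tied off at 8 weeks of age. During the surgery, 3 hearts received control mimic (control hearts) and 3 received miR-19a/19b mimic (miR-19 hearts), each at 10 μg per heart by intra-cardiac injection. A miRNA mimic is a synthetic duplex that works in the cell as the mature miRNA. All 6 hearts were infarcted, so no uninjured or uninjected heart stands beside them, and the tissue was a mixture of every cell type of the ventricle.

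Lipg, Lpl and Lipc belong to one protein family. These enzymes work outside the cell on lipoproteins in the blood, where Lpl mainly releases fatty acids from triglyceride and Lipg mainly cleaves phospholipids of high density lipoprotein. Lpl is made by cardiomyocytes among other cells and is carried by Gpihbp1 to the capillary surface, which is how the heart obtains much of its fuel, while Lipg is made largely by endothelial cells. Inside the cell, Pnpla2 and Lipe break down stored triglyceride, and Lipa hydrolyses lipids delivered to the lysosome.

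The mature mouse miRNAs that the mimics stand for are shown because their seed (bases 2 to 8, in capitals), the part that pairs with target transcripts, is the same in both. They are 23 bases long and differ at 1 position, the 11th from the 5′ end. Sequences are from RefSeq (GRCm38.p6).
miR-19a-3p: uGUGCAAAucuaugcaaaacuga
miR-19b-3p: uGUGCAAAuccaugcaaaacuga

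The longest annotated 3′ UTR of each gene was searched on the transcript strand for the 8-mer TTTGCACA and for the 7-mers TTTGCAC and TTGCACA contained in it. Of the 9 genes, 1 held a match, Lipa, which has a 7-mer at base 1140 of its 1662-base 3′ UTR. Among 15866 tested genes with a 3′ UTR, 19.3% held any of these matches and 5.81% the 8-mer. The site of Lipa is shown with its flanks in lower case and the match in capitals.
Lipa: aaaagcagTTTGCACtgattaaa

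No match was found in the 1995-base 3′ UTR of Lipg or in the 2428-base 3′ UTR of Lpl. The absence of these letters says only that they are not in the annotated 3′ UTR.

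The libraries held between 19398196 and 23645308 reads on genes. The values are normalized counts, the reads of a gene over the size factor of that library. Cardiomyocyte markers summed to between 499145 and 656213 normalized counts in control hearts, to 906261 and 821202 in miR-19 replicates 1 and 2, and to 304948 in miR-19 replicate 3, the lowest of all 6. In bulk tissue, fewer cells of a type and less RNA per cell cannot be told apart. The 8 skeletal muscle genes gave a sum of 9424 for miR-19 replicate 1 and of at most 6310 elsewhere, most of it from Ckm, which the heart also expresses. Genes of fast skeletal fibres set that heart apart more clearly, with Mylpf at 677 normalized counts against at most 28.5 in the others, Atp2a1 at 508 against at most 13.8, and Myh2 at 246 against 0 reads. Their part in the results below was not tested. Without that heart, the log2 fold change was -2.27 for Lipg, 0.08 for Lpl and 0.14 for Pnpla2.

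Lipg (ENSMUSG00000053846; GRCm38 chromosome 18, 74939322 to 74961263, minus strand) had 93.9, 71.2 and 50.4 normalized counts in control mimic replicates 1, 2 and 3. In miR-19 replicates 1, 2 and 3 it had 14.0, 11.3 and 16.4. Every miR-19 heart lay below every control heart, and the control hearts were more spread out than the miR-19 hearts. The means were 71.9 ± 21.8 (SD, n = 3) and 13.9 ± 2.54, so the control mean was 5.16 times the other. On the log2(normalized count + 1) scale the difference was -2.26 with a standard error of 0.29 from limma. With each heart left out in turn it lay between -2.49 and -2.05. Because Lipg was selected on this difference, neither the standard error nor this range tests it.

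Few reads stand behind these values. Lipg drew 85, 73 and 54 reads in the control hearts and 13, 11 and 19 in the miR-19 hearts. Over the size factor, the exact Poisson 95% interval runs from 9.89 to 25.6 normalized counts in miR-19 replicate 3. In control mimic replicate 3 it runs from 37.9 to 65.8. The intervals are a measure of precision that covers counting error only. They do not test the difference between the groups, on which Lipg was selected. The transcript of Lipg aligned to no other gene over 100 bases at 90% identity, and no annotated gene overlaps it.

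Lipg was then set beside markers of endothelial cells. Which cells held its transcript in these hearts was not tested. The 12 endothelial markers, among them Pecam1, Cdh5 and Kdr, summed to between 32453 and 40571 normalized counts in control hearts and to between 34946 and 36873 in miR-19 hearts. The groups overlapped, and 0 of the 12 markers had an unadjusted p-value under 0.05, against 4.01% of all genes tested. As a log2 ratio to its own control mean, each marker stayed between -0.32 and 0.24 in all 6 hearts, while Lipg reached -2.66. Lipg per 1000 endothelial counts was 2.32, 2.20 and 1.47 in control hearts and 0.400, 0.308 and 0.455 in miR-19 hearts. Its control mean was 5.14 times that of miR-19 hearts, as large as without this scaling. Relative to the macrophage markers the ratio of means was 4.74, relative to the fibroblast markers 5.24, and relative to the cardiomyocyte markers 4.56. Of the 10 macrophage markers 1 (Ccr2) had an unadjusted p-value under 0.05 from limma, as did 1 of 10 cardiomyocyte markers (Nppa). Both were lower in miR-19 hearts, and of the 8 fibroblast markers 0 passed. Each sum is weighted toward its most abundant genes.

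**Figure D1:**
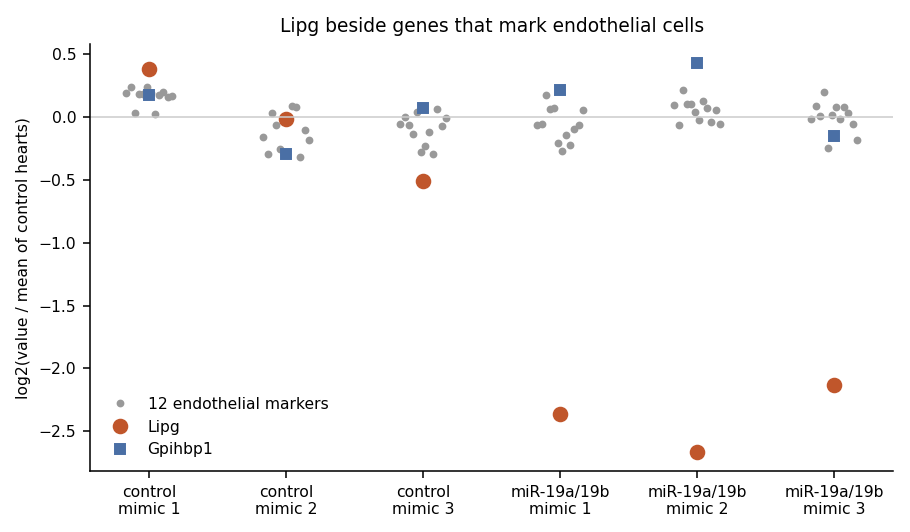
Each point is 1 gene in 1 heart, as the log2 ratio of its normalized count to the mean of the 3 control hearts. Grey points are the 12 endothelial markers, which stay between -0.32 and 0.24, orange points are Lipg, which reaches -2.66 in miR-19 hearts, and blue squares are Gpihbp1.

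Neither of the other surface lipases had an adjusted p-value under 0.05. Lpl (ENSMUSG00000015568; chromosome 8, 68880491 to 68907448) had 27973, 26312 and 41623 normalized counts in control hearts and 62755, 57217 and 19131 in miR-19 hearts. Thus 2 miR-19 hearts were above every control heart and the third was below every one of them. The log2 fold change was 0.39 (standard error 0.43, adjusted p = 0.9996 from limma), with a 95% interval from -0.59 to 1.36. Lipc (ENSMUSG00000032207; chromosome 9, 70798129 to 70934808), the hepatic lipase, was barely detected, at 16.6, 7.81 and 10.3 normalized counts in control hearts and 8.61, 4.12 and 13.0 in miR-19 hearts. These ranges overlapped, and the interval of its log2 fold change ran from -1.51 to 0.62. The liver transcripts listed as hepatocyte markers were also near 0, with a sum of at most 26.3 in any heart and Alb at 0 reads in all 6, which allows up to 3 reads per library.

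The value of Lpl moved with the cardiomyocyte markers. Its highest and lowest hearts, which differed 3.28-fold, were also the highest and lowest for the marker sum, which spanned 2.97-fold. Per 1000 cardiomyocyte counts, Lpl was 47.5, 52.7 and 63.4 in control hearts and 69.2, 69.7 and 62.7 in miR-19 hearts. The spread between hearts shrank to 1.47-fold on this scale, and the groups still overlapped. The same scaling also shrank the spread of Pnpla2, from 2.24-fold to 1.71-fold. It widened the spread of Lipe from 1.66-fold to 2.57-fold, of Gpihbp1 from 1.65-fold to 2.30-fold and of Lmf1 from 1.18-fold to 2.84-fold. The part of the markers in these results was not tested. Without miR-19 replicate 3, the log2 fold change of Lpl was 0.94 and its adjusted p-value 0.0363 from limma. In that fit 2.44% of all genes tested had an adjusted p-value under 0.05, against 0% with all 6 hearts.

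**Figure D2:**
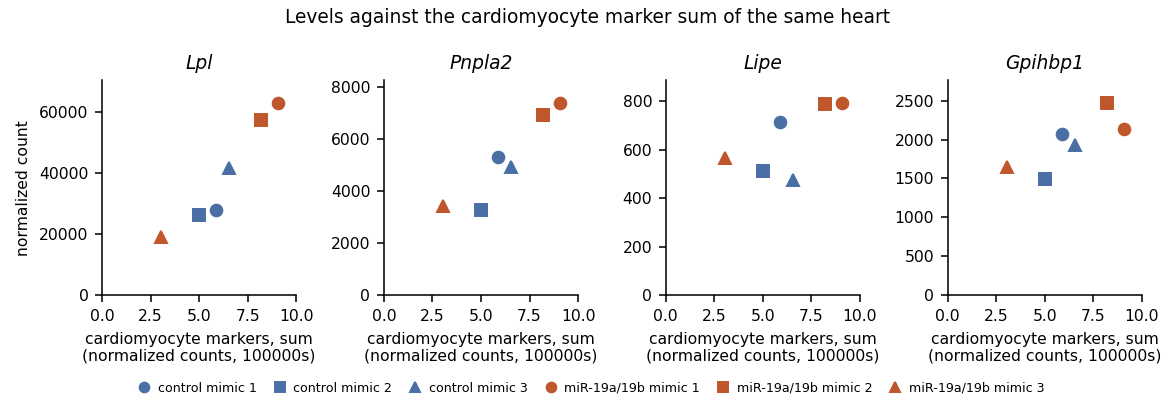
Each point is 1 heart, with the sum of 10 cardiomyocyte markers on the x axis and the normalized count of Lpl, Pnpla2, Lipe or Gpihbp1 on the y axis. The lowest marker sum, 304948 in miR-19 replicate 3, comes with the lowest Lpl (19131), and the highest sum, 906261 in miR-19 replicate 1, with the highest (62755).

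Among the helpers of the surface lipases, Gpihbp1 (ENSMUSG00000022579; chromosome 15, 75596628 to 75599481), which anchors Lpl on capillary endothelium, had 2076, 1496 and 1924 normalized counts in control hearts and 2134, 2466 and 1653 in miR-19 hearts. The groups overlapped, and the log2 fold change was 0.18 (standard error 0.17, adjusted p = 0.9996 from limma) with a 95% interval from -0.21 to 0.57. Per 1000 endothelial counts it was 51.1 ± 5.01 (SD, n = 3) and 57.9 ± 10.9. It was within 0.43 of its control mean on the log2 scale in every heart.

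Lmf1 (ENSMUSG00000002279; chromosome 17, 25579174 to 25662826), an endoplasmic reticulum protein that surface lipases need to fold, had 605, 572 and 552 normalized counts in control hearts. It had 642, 651 and 613 in miR-19 hearts, all above the highest control heart. The shift was small, with means of 576 ± 26.5 (SD, n = 3) and 635 ± 19.8, or 0.14 on the log2 scale (standard error 0.10, adjusted p = 0.9996 from limma). It was the steadiest of the 9 genes, with 1.18-fold between its highest and lowest heart. Its longest transcript aligned to parts of 344 other genes over at least 100 bases at 90% identity or more, and that of Lpl to parts of 81, so a share of their reads may be placed with uncertainty.

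Angptl4 (ENSMUSG00000002289; chromosome 17, 33773750 to 33781575) encodes a secreted inhibitor of Lpl. Its normalized counts were 5577, 4155 and 3956 in control hearts and 4700, 5349 and 5249 in miR-19 hearts. The range of the miR-19 hearts lay inside that of the control hearts. The log2 fold change was 0.17 (standard error 0.15, adjusted p = 0.9996 from limma), with a 95% interval from -0.16 to 0.51.

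Pnpla2 (ENSMUSG00000025509; chromosome 7, 141455198 to 141460743), the adipose triglyceride lipase that takes the first fatty acid off stored triglyceride, had 5303, 3290 and 4936 normalized counts in control hearts and 7370, 6917 and 3431 in miR-19 hearts. As for Lpl, replicates 1 and 2 of the miR-19 group were the highest of the 6 hearts and replicate 3 was among the lowest. The log2 fold change was 0.34 (standard error 0.29, adjusted p = 0.9996 from limma). Lipe (ENSMUSG00000003123; chromosome 7, 25379527 to 25398710), hormone-sensitive lipase, takes the next one. It had 714, 511 and 476 normalized counts in control hearts and 791, 790 and 567 in miR-19 hearts, with overlap between the groups. Its difference on the log2 scale was 0.34 (standard error 0.19, unadjusted p = 0.0986, adjusted p = 0.9996 from limma), with the smallest p-value of the 8 genes besides Lipg. An antisense gene, 4732471J01Rik, spans Lipe on the other strand, and the sources used here do not say whether reads were counted by strand, so reads where the transcripts overlap cannot be told apart. The transcripts share a stretch of 121 bases, and the antisense gene had a mean of 11.7 normalized counts against 641 for Lipe.

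Pnpla2, Lipe, Lpl and Angptl4 are also active in fat, so markers of adipocytes were read in the same hearts. Lep was at 0 reads in all 6 hearts, Plin1 reached at most 0.934 and Adipoq at most 5.53 normalized counts. The summed level of the 11 markers was between 315 and 435 in control hearts and between 237 and 549 in miR-19 hearts, and Cidea alone, at 220 to 533, made up most of it. Adrb3 reached at most 30.3 and Cfd at most 12.2 normalized counts. Apart from Cidea, the listed adipocyte markers were thus low or at 0.

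Lipa (ENSMUSG00000024781; chromosome 19, 34492318 to 34527474), the acid lipase of the lysosome and the only one of the 9 genes with a seed match, had 3601, 4220 and 3520 normalized counts in control hearts. In miR-19 hearts it had 3296, 3086 and 4776, with the highest and the lowest of the 6 hearts both in this group. The log2 fold change was -0.05 (standard error 0.17, adjusted p = 0.9996 from limma), with a 95% interval from -0.43 to 0.34. Per 1000 macrophage counts Lipa was 77.5 ± 2.04 (SD, n = 3) in control hearts and 82.8 ± 7.64 in miR-19 hearts, a spread of 1.19-fold over all hearts against 1.55-fold for Lipa itself.

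**Figure D3:**
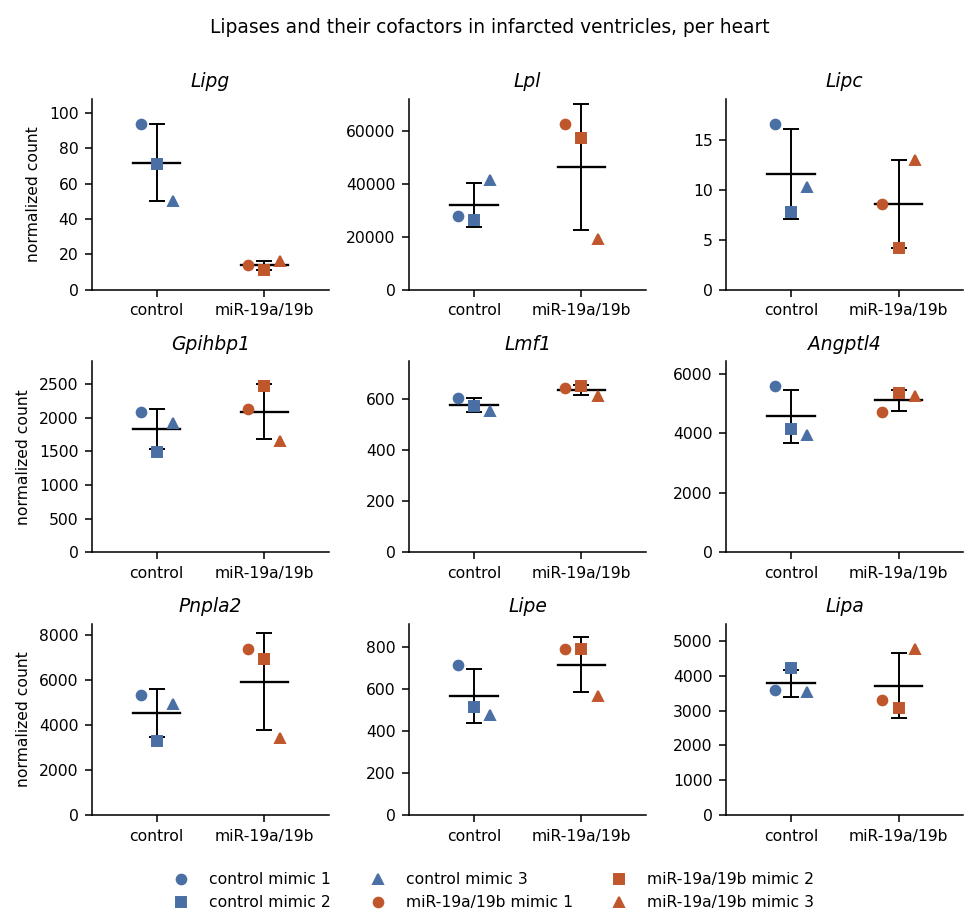
Normalized counts of the 9 genes in each heart, with control mimic hearts in blue and miR-19 hearts in orange; each horizontal bar is the mean and each vertical bar the SD of 3 hearts. The groups do not overlap for Lipg and Lmf1, while Lpl and Pnpla2 have miR-19 replicate 3 far below the other 2 hearts of its group.

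Over the 8 genes besides Lipg, 0 had an adjusted p-value under 0.05 in limma, where 0% of the 21126 genes tested did (848 had an unadjusted p-value under 0.05, and DESeq2 called 29 genes after adjustment). At an unadjusted p-value under 0.05 there were also 0 of 8, against 4.01% of all genes tested, and by edgeR's quasi-likelihood test, limma-voom and DESeq2 on the recovered reads there were 0 as well. Lmf1 was the 1 gene of the 8 whose groups were apart, where 9.2% of all genes tested showed no overlap. The median log2 fold change of the 8 was 0.18, and that of all genes tested was 0.0041. Of the 8, 6 had a higher value in miR-19 hearts and 2, Lipc and Lipa, a lower one.

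These counts depended on miR-19 replicate 3. Without it, 1 of the 8, Lpl, had an adjusted p-value under 0.05, against 2.44% of all genes tested. At an unadjusted p-value under 0.05 there were then 5 of 8 (Lpl, Gpihbp1, Pnpla2 and Lipe higher and Lipa lower), against 14.5% of all genes tested. That heart is also the one with the lowest cardiomyocyte marker sum, and the part of this in the result was not tested.

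**Figure D4:**
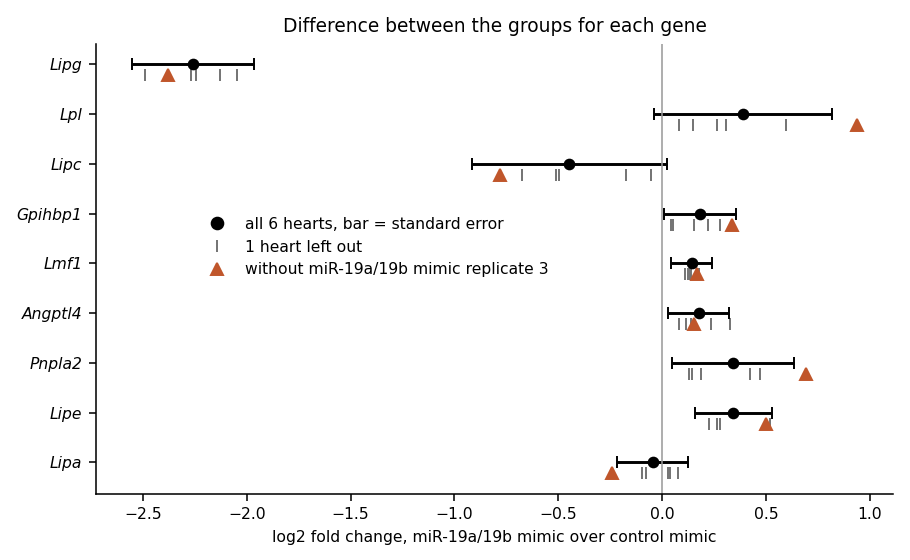
Log2 fold change of each gene, miR-19 over control mimic, with its standard error from limma (black), after leaving out each heart in turn (ticks) and after leaving out miR-19 replicate 3 (triangles). Lipg, which was selected on this difference, stays between -2.49 and -2.05, and Lpl moves from 0.39 to 0.94 without that replicate.

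Levels were compared between genes per kb of gene length, as the authors list it. Lpl led with a mean of 5752 normalized counts per kb, 3.34 times Pnpla2 (1724). Pnpla2, Angptl4 (1470) and Lipa (1263) followed, and each of these neighbours kept its place in only 4 of the 6 hearts, so their order was not separated from the spread between hearts. Gpihbp1 (767), Lipe (109) and Lmf1 (44.96) came next, each apart from its neighbours in all 6 hearts. The place of Lmf1 below Lipe depends on the listed lengths, 13471 bases for Lmf1 and 5886 for Lipe. Before division by length their means were 606 and 641 normalized counts. Lipg (11.3) and Lipc (5.24) were the lowest, and Lipg was above Lipc in all 3 control hearts and in 1 of 3 miR-19 hearts. The 9 genes thus covered a wide range, with the transcript of Lipg, even in control hearts, far below that of Lpl.

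**Figure D5:**
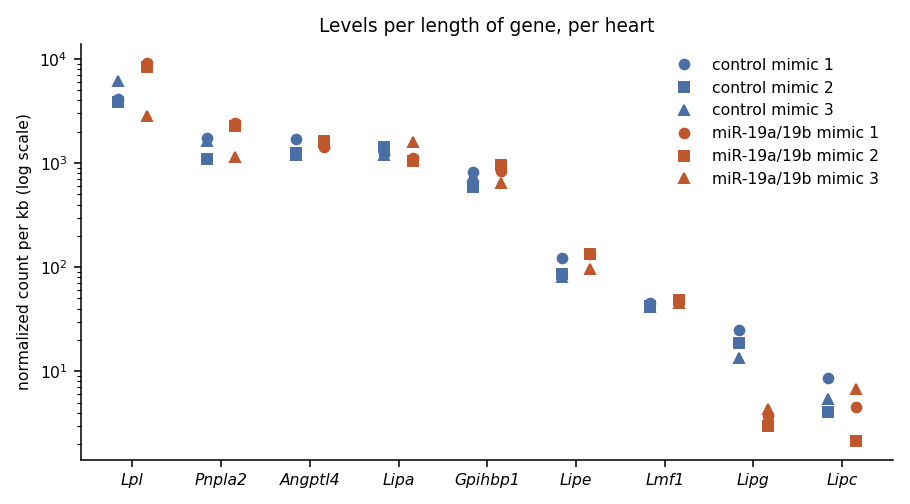
Normalized counts per kb of gene length on a log axis for each gene and heart, with control mimic hearts in blue and miR-19 hearts in orange, ordered by the mean over 6 hearts. Lpl has the highest mean (5752) and Lipc the lowest (5.24), and Lipg is the gene whose groups stand farthest apart.

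Other genes of lipoprotein and lipid handling were read as lists. Among 14 tested cofactors and regulators of surface lipases, 0 had an unadjusted p-value under 0.05, against 4.01% of all genes tested. Their median log2 fold change was -0.0037. The largest differences among the abundant ones were in Apoe, a ligand for lipoprotein receptors, with 102936 ± 10413 (SD, n = 3) normalized counts in control and 87281 ± 21598 in miR-19 hearts, and in Furin, a protease that cleaves surface lipases, with 5977 ± 380 and 6584 ± 661. Among 8 tested lipases of the same protein families, 0 passed that threshold. Pla1a, a phospholipase related to Lipg, had 733 ± 49.95 and 678 ± 134 normalized counts, and Pnpla8, a relative of Pnpla2, had 1490 ± 94.0 and 1561 ± 358.

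In the list of lipoprotein receptors and lipid uptake, 3 of 15 genes had an unadjusted p-value under 0.05, 1 higher and 2 lower. After adjustment over all genes, 0 passed. Of all genes tested, 4.01% had an unadjusted p-value under 0.05, and the groups did not overlap for 9.2%. Slc27a1, a fatty acid transporter, had 3270, 3078 and 3189 normalized counts in control hearts and 4582, 4436 and 3402 in miR-19 hearts, with no overlap. Lrp8, a receptor for apolipoprotein E, had 456, 484 and 423 and then 395, 338 and 355, also with no overlap. Sorl1, a sorting receptor that binds lipoproteins, had 1127 ± 83.8 (SD, n = 3) and 881 ± 177. Their log2 fold changes were 0.37, -0.33 and -0.37 (unadjusted p = 0.0209, 0.0187 and 0.0315, each with an adjusted p = 0.9996 from limma).

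Of 17 tested genes of lipid droplets and intracellular lipolysis, 0 had an unadjusted p-value under 0.05, and the median log2 fold change was 0.15. The widest differences were in Ces1d, a carboxylesterase with triglyceride hydrolase activity, at 112, 53.7 and 194 normalized counts in control hearts and 429, 466 and 32.8 in miR-19 hearts, and in Plin5, a droplet coat protein of oxidative tissue, at 812, 622 and 1019 and then 1684, 1868 and 456. Both had their lowest value in miR-19 replicate 3 and their highest values in the other 2 hearts of that group, as Lpl did. Of 13 genes of lysosomal and cholesterol handling, 0 passed the threshold. Nceh1, a cholesteryl ester hydrolase, had 2356 ± 81.3 (SD, n = 3) and 2992 ± 802 normalized counts, and Abcg1, a cholesterol exporter, had 1033 ± 94.6 and 856 ± 126.

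The genes whose values over the 6 hearts were most like those of Lipg were sought among the 12738 genes that averaged at least 50 normalized counts. Since the same 6 hearts and the same difference between groups stand behind every pair, the correlations are a description. Among the highest Pearson correlations of log2(normalized count + 1) were 0.981 for Apol9a, of the apolipoprotein L family, 0.981 for Serpinb9, an inhibitor of granzyme B, 0.980 for Surf6, a nucleolar protein, and 0.977 for Sh2d1b1, an adaptor of SLAM family receptors. Apol9a had 161 ± 14.6 (SD, n = 3) normalized counts in control and 77.8 ± 8.79 in miR-19 hearts, a smaller step than that of Lipg. The lowest correlations were -0.991 for Agpat1, an acyltransferase of glycerolipid synthesis, -0.983 for Anapc5 and -0.977 for Pomt1. Agpat1 had 1707 ± 45.4 (SD, n = 3) and 1914 ± 1.41 normalized counts. Among the related lipases and helpers with a mean of at least 50, the correlation with Lipg ran from -0.748 for Lmf1 to 0.221 for Lipa.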

How the data were processed

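Polyadenylated RNA of 6 ventricles was sequenced with paired-end reads. Per the labels' processing notes, the authors aligned reads with STAR 2.5.1b and counted them per gene with HTSeq 0.6.0. The deposited signal is a normalized count, the reads of a gene over the size factor of that library. Multiplied back, 100% of the values came out whole in every library (tolerance 0.001 read, scaled above 1000 reads), so reads were recovered. The authors' columns of fold changes and p-values, and their table of selected genes, were not used. The processing notes name mm9 and DESeq2 1.10.1 (the methods name edgeR), yet of 25884 identifiers found in GENCODE M21 (GRCm38), 99.9% lie on the same chromosome and 82.7% match it at both ends. Coordinates are therefore given on GRCm38.

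Groups were compared with limma 3.58.1 (R 4.3.3, trended prior) on log2(normalized count + 1) over 21126 genes with a mean of at least 1, with Benjamini-Hochberg adjustment over all of them. DESeq2 1.42.0, edgeR 4.0.16 (quasi-likelihood) and limma-voom on the recovered reads were alternatives, with other filters, a pseudocount of 0.1, a replicate block and each heart left out. Fold changes on this scale understate those of low genes. The fits were checked on simulated data. Members and gene lists were chosen with earlier results of these data known. Named genes are all 9 members, from each list those with an unadjusted p-value under 0.05 (or, below 2 such genes, the largest changes at a mean of at least 50), and the 5 and 3 most and least correlated with Lipg, of which 1 is not reported here. Of a symbol with several rows, the highest was used. Transcripts were aligned with BLAST 2.17.0. Nothing in the sources ties the hearts to litters or batches.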

Additional observations from a re-analysis of the deposited data

How the results depend on the processing

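The log2 fold change of Lipg, on which it was selected, stayed between -2.36 and -2.26 in the alternatives with all 6 hearts. Of the 8 other genes, 0 had an adjusted p-value under 0.05 in each alternative with all hearts, and from 0 to 1 with 1 heart left out. The 1 was Lpl (0.94, adjusted p = 0.0363 from limma) without miR-19a/19b mimic replicate 3, where 515 of 21126 genes passed. At an unadjusted p-value under 0.05, from 0 to 5 passed with 1 heart left out. The count was 5 without miR-19a/19b mimic replicate 3, where 3070 of 21126 genes passed. It was 2 (Angptl4 and Lipe) without control mimic replicate 1, where 744 of 21126 genes passed. With the replicate number as a block, 1 passed (Lipe), against 0 without it. Of all 21126 genes, 641 passed with the block and 848 without it. Hearts that share a number did not deviate together (correlations of -0.0085, -0.021 and -0.115), so the numbers were not taken to pair the hearts. Among the 8 genes the block changed no other call. The groups were apart for 2 of the 9 genes, and for 2 to 7 with 1 heart left out. The count was 4 without control mimic replicate 1, where 3851 of 21126 genes did not overlap, and 7 without miR-19a/19b mimic replicate 3, where 6654 did not. Fewer hearts make such separation more frequent. The log2 fold change of Lipa, -0.05, turned positive without control mimic replicate 2 (0.04), miR-19a/19b mimic replicate 1 (0.03) or replicate 2 (0.0744), with -0.24 to 0.0744 as the range over all hearts left out. Lipc had fewer than 10 reads in some hearts and gives no value under that filter, and DESeq2 gave it no adjusted p-value. With 11 to 85 reads per heart for Lipg and 4 to 15 for Lipc, small differences in these low genes were not detectable at this depth.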
